A study of Danio rerio with 24 samples.

Results

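Genes that duplicate DNA and divide cells were followed in RNA of whole zebrafish (Danio rerio) embryos from a wild-type line (WT) and a line edited in a noncoding RNA, each with and without dioxin. The members were 47 listed gene symbols with known roles in the cell cycle. Of these, 44 were found among the 26347 genes of the deposited raw counts. They were matched by Ensembl ID through gene symbols that the authors gave in a separate deposited sheet. They were 18 of DNA replication, 7 of the G1/S transition and its checkpoint, and 19 of mitosis. All 44 passed the filter on low counts. The listed mcm7, rrm2 and birc5a have no gene under the authors' symbols and are not counted as members. The symbol nuf2 belongs to 2 gene IDs; ENSDARG00000034624 was used, and the other, ENSDARG00000074906, stood at 0.0622 to 1.03 CPM (counts scaled to a common library total) in the 16 libraries.

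WT and slincRosu3 embryos were either controls or were exposed to TCDD (2,3,7,8-tetrachlorodibenzo-p-dioxin, an agonist of the aryl hydrocarbon receptor) at 1 ng/mL from 6 hours post fertilization (hpf), and RNA was taken at 48 hpf. Both slincRosu3 groups carry a CRISPR-Cas9 mutation in slincR, the long intergenic noncoding RNA of the sox9b locus. Each of the 4 groups has 4 libraries, numbered as replicates. The labels do not say what control embryos received, how many embryos make up a library or whether replicates come from separate clutches. The p-values below therefore measure the spread between these libraries, which may be technical. The 8 samples of another line, BigD, were not analysed here.

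A dividing cell first licenses its replication origins: the origin recognition complex, with CDC6 and CDT1, loads the MCM helicase in G1, and geminin later blocks CDT1 so that no origin is used again in the same cycle. Cyclin D and cyclin E with their kinases, and E2F transcription factors, drive entry into S phase, in which the sliding clamp PCNA, polymerases, FEN1 and DNA ligase 1 copy the genome. CDK1 with the A- and B-type cyclins then starts mitosis, and kinetochores, the spindle checkpoint, Aurora and Polo kinases and motor proteins separate the chromosomes. In the zebrafish embryo at this age many neural and retinal cells are leaving the cycle, while progenitors at the brain ventricle and the retinal margin go on dividing. In bulk RNA, fewer cells of a type and less RNA per cell cannot be told apart.

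Total counts per library ran from 17275522 to 20100736, and 24778 to 25471 genes had at least 1 count. In WT, 39.8% to 43.2% of reads were assigned to a gene. The marker cyp1a, induced through the aryl hydrocarbon receptor, stood at 2.75 to 5.32 CPM in the 8 control libraries and at 856 to 1931 CPM in the 8 TCDD libraries. The edited slincR was not found under that name, so the line labels were not checked by it. The first principal component of all tested genes (29.8% of the variance) set 4 libraries apart at 1 end, WT control 4 (56.2), slincRosu3 control 4 (53.4), WT TCDD 4 (35.5) and WT TCDD 3 (32.7). At the other end lay slincRosu3 control 2 (-39.96) and WT TCDD 2 (-35.3), which are not among the libraries called apart below. The 4 libraries apart had the largest shares of counts in their 100 top genes, 35.3% to 38.4%, against 32.1% to 35.1% elsewhere. WT TCDD 3 and 4 had the largest totals (19924611 and 20100736) and the fewest genes detected (24778 and 24782). Any link of these traits to the members' levels was not tested. Markers of erythroid cells (12 genes), skeletal muscle (18) and neurons (20) were above 0 in every library, and of 26 photoreceptor markers only guca1b was at 0 in any.

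Each library was given a score, the mean over the members of log2 CPM centred on each gene's mean over the 16 libraries. Cell cycle transcripts were highest in WT control 1. The scores of WT control 1 to 4 were 0.74, 0.32, -0.04 and -0.03. Those of WT TCDD 1 to 4 were -0.24, -0.22, 0.09 and -0.02. The WT groups overlapped, because WT control 3 and 4 lay below WT TCDD 3 and near WT TCDD 4. The scores of slincRosu3 control 1 to 4 were -0.14, 0.30, -0.28 and 0.14, and those of slincRosu3 TCDD 1 to 4 were -0.12, -0.03, -0.38 and -0.09. In slincRosu3, control 2 and 4 lay above every TCDD library, and control 1 and 3 within their range. The group means were 0.25 ± 0.37 in WT control, -0.10 ± 0.16 in WT TCDD, 0.01 ± 0.26 in slincRosu3 control and -0.16 ± 0.16 in slincRosu3 TCDD (SD, n = 4 each). The mean of the other 3 WT controls without WT control 1 was 0.08. Without the 4 libraries apart on the first component the 4 means were 0.34 (3 libraries), -0.23 (2), -0.04 (3) and -0.16 (4).

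**Figure D1:**
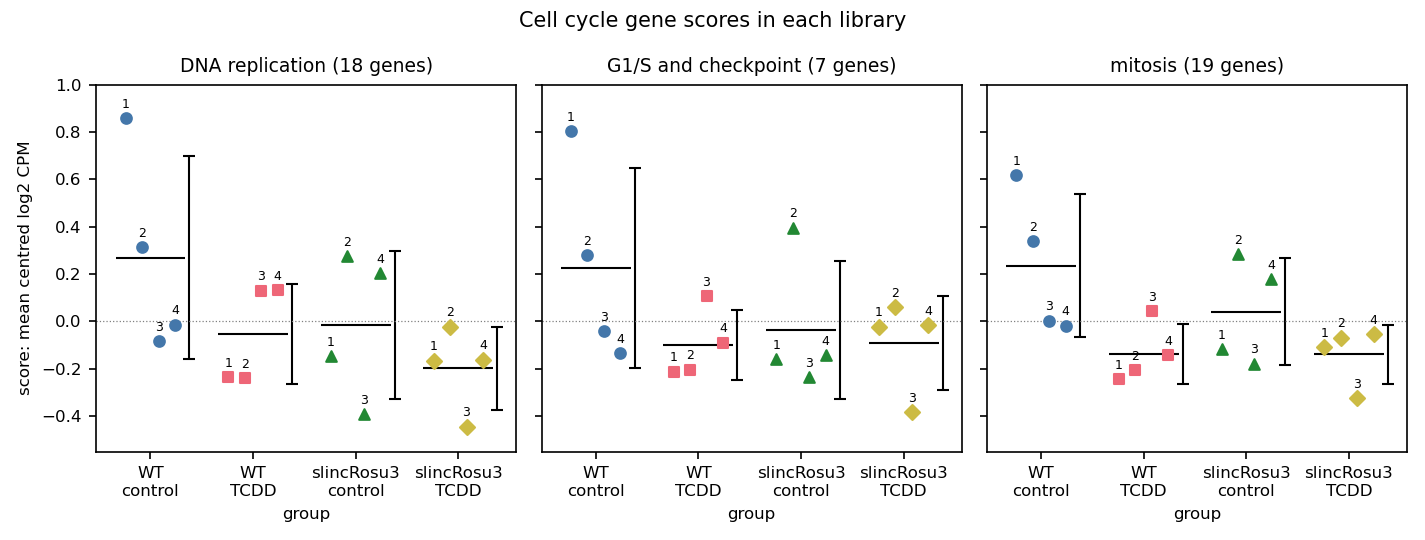
Scores of the replication, G1/S and checkpoint, and mitosis genes (vertical axis, mean centred log2 CPM) in each of 16 libraries, by group; points are libraries with their replicate number, lines are group means and bars are SD. WT control 1 is highest in all 3 panels, at 0.86 for replication and 0.62 for mitosis, and slincRosu3 TCDD 3 is lowest.

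Replication and mitosis genes varied together across libraries. The replication score was 0.27 ± 0.43 in WT control, -0.05 ± 0.21 in WT TCDD, -0.02 ± 0.31 in slincRosu3 control and -0.20 ± 0.18 in slincRosu3 TCDD. The mitosis score was 0.23 ± 0.30, -0.14 ± 0.13, 0.04 ± 0.23 and -0.14 ± 0.13 in the same order (SD, n = 4 each). The difference between the WT control and WT TCDD means was within the SD of WT control for replication and beyond it for mitosis. As a description over 16 libraries, which share the normalisation and fall into 4 groups, Pearson's r between the 2 scores was 0.94 and Spearman's rho 0.88, and r was 0.86 without WT control 1 and slincRosu3 TCDD 3. The 2 scores parted most in WT TCDD 4, where replication exceeded mitosis by 0.28, in WT control 1, by 0.24, and in slincRosu3 control 3, where it was lower by 0.21 (difference of -0.21).

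Of the members, 42 of 44 had their highest level in WT control 1, among them all 18 replication genes, against 14.3% of all 20907 genes tested. All 44 exceeded the other 3 WT controls there, as did 6375 of the 20907 genes tested. Its median excess over the mean of the other 15 libraries was 0.80 on the log2 scale, 0.93 for replication, 0.82 for G1/S and checkpoint, and 0.67 for mitosis genes, against 0.012 over all genes. This library was singled out for its score, so these values are a description with no test. The largest excess was that of lig1, the ligase that joins Okazaki fragments, at 150.3 CPM against 50.1 to 96.6 CPM elsewhere. The helicase subunit gene mcm2 stood at 232 CPM against 79.1 to 152 CPM. The checkpoint kinase gene chek1 stood at 20.1 CPM against 7.47 to 13.7 CPM. For each of these 3 genes WT control 1 lay well clear of the next library. The clamp gene pcna stood at 599.8 CPM against 208 to 432 CPM. The flap endonuclease gene fen1 stood at 74.5 CPM against 26.4 to 47.2 CPM. The single-strand binding protein gene rpa2 stood at 63.4 CPM against 23.9 to 43.3 CPM. These 6 genes were 2.02-fold to 2.20-fold above the mean of the other 15 libraries. The smallest excess was that of cenpf, a kinetochore protein gene, at 0.38, and cenpf and e2f1 were the members highest elsewhere, both in slincRosu3 control 2.

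**Figure D2:**
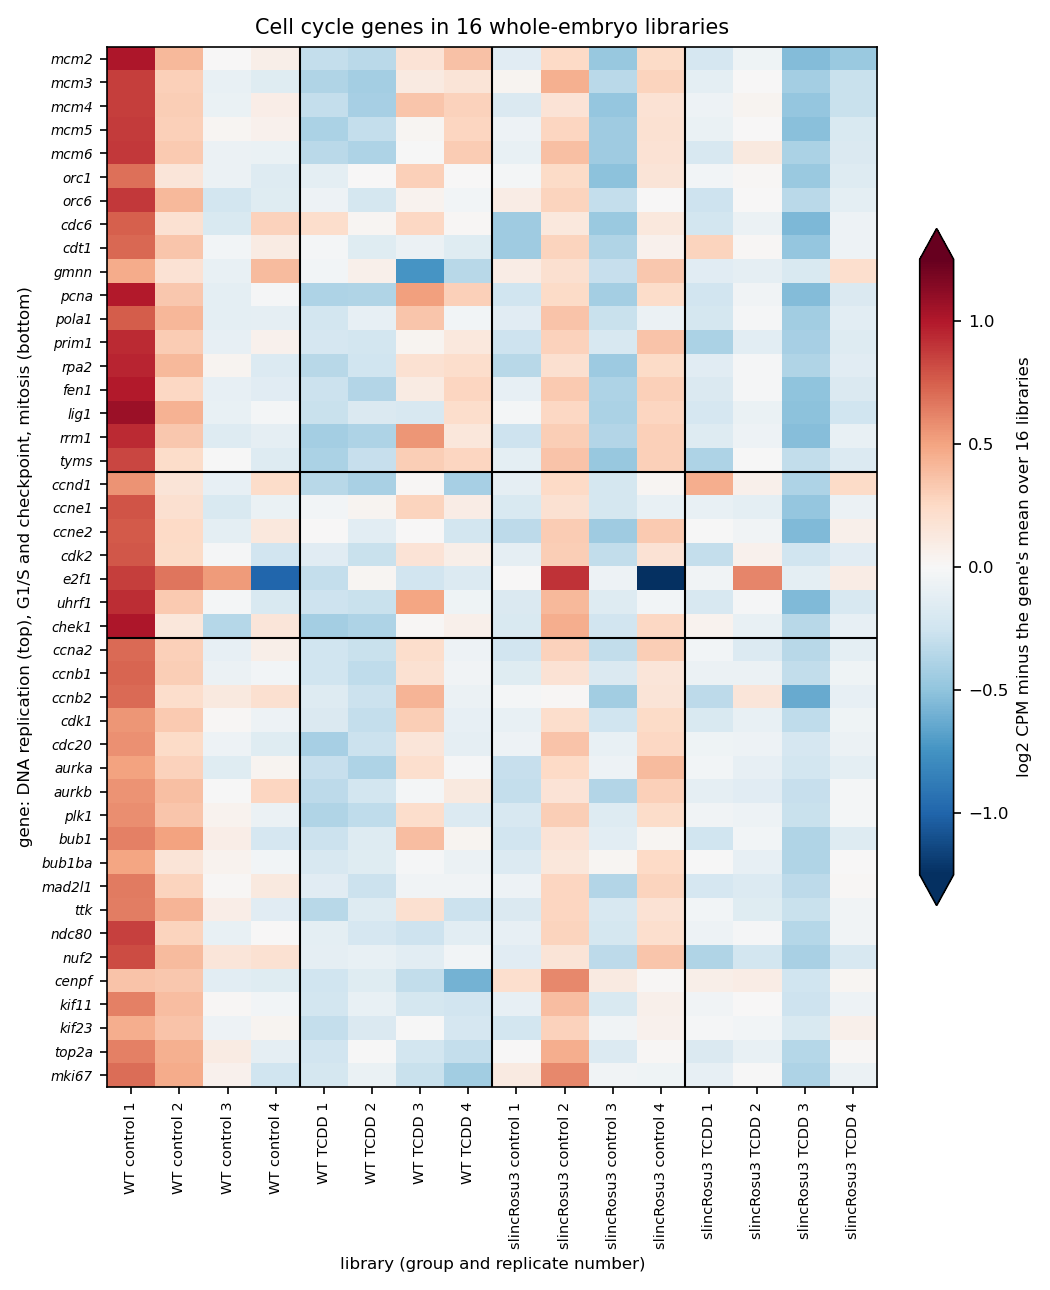
Log2 CPM of 44 members (rows, in 3 role groups) in 16 libraries (columns, in 4 groups), each centred on the gene's mean over all libraries; the colour scale ends at its marked limits. WT control 1 stands above the mean in all rows, and e2f1 is lowest in slincRosu3 control 4 and WT control 4.

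TCDD against control in WT asks what the dioxin did to these genes in unedited embryos. All 44 members had a log2 change below 0, from -0.59 to -0.13, as did 48.4% of all genes tested. The median was -0.38 for replication, -0.38 for G1/S and checkpoint and -0.39 for mitosis genes, against 0.0073 over all genes. None passed edgeR's quasi-likelihood test after Benjamini-Hochberg adjustment, where 0.325% of all genes did, and none passed with DESeq2. At an unadjusted p under 0.05, 20 members were lower, 14 of mitosis, 5 of replication (cdt1, gmnn, lig1, mcm5 and prim1) and ccnd1, against 3.64% of all genes. Members varied together across libraries, with a median correlation of 0.91 with the mean of the others. Here and in the comparisons below, counts of members are therefore not counts of independent results. Without WT control 1 the median log2 change was -0.17, 41 members stayed below 0 and 6 had an unadjusted p under 0.05. The percentages of all genes given here belong to the fit with all 16 libraries. Without the 4 libraries apart on the first component the median log2 change was -0.60. In this fit 1 member, plk1, passed, among 327 called over all genes (68 with all 16 libraries). That fit keeps WT control 1. Of WT TCDD it keeps only libraries 1 and 2, which had the lowest members' scores of their group (-0.24 and -0.22).

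Among the licensing genes, the helicase subunits overlapped between WT control and WT TCDD. The levels of mcm2 in WT control 1 to 4 were 232, 152, 116 and 121 CPM, and in WT TCDD 93.9, 91.2, 129.6 and 148 CPM. Its log2 change was -0.42 (SE 0.220, adjusted p = 0.667). Those of mcm5 were 159, 106, 88.2 and 89.9 CPM, and 65.9, 70.6, 88.2 and 104 CPM, a log2 change of -0.43 (SE 0.198, adjusted p = 0.613). In both genes WT TCDD 1 and 2 lay below every control, and WT TCDD 4 above control 3 and 4. The subunit gene mcm3 had 142, 95.9, 72.8 and 69.9 CPM in control and 59.9, 58.1, 83.9 and 86.9 CPM with TCDD. The levels of mcm4 were 219, 149, 113 and 127 CPM, and 97.4, 90.1, 153 and 146 CPM. Those of mcm6 were 147, 100.0, 75.6 and 75.5 CPM, and 63.3, 61.2, 79.6 and 99.4 CPM. The log2 changes of mcm3, mcm4 and mcm6 were -0.40, -0.32 and -0.39, and the same split between TCDD 1 and 2 and TCDD 3 and 4 was seen in each. The sixth helicase subunit, mcm7 (ENSDARG00000101180, named by a gene name table and not by the authors), had 225, 159.9, 117 and 175 CPM in control and 104, 94.8, 147 and 189 CPM with TCDD, a log2 change of -0.34 (adjusted p = 0.759).

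The loading factor gene cdt1 had 20.1, 15.6, 11.96 and 13.1 CPM in WT control and 12.1, 11.0, 11.6 and 11.0 CPM in WT TCDD, a log2 change of -0.41 (SE 0.187, adjusted p = 0.603). Its inhibitor geminin, gmnn, had 10.7, 8.78, 7.28 and 10.2 CPM and 7.58, 8.12, 4.67 and 6.09 CPM, a log2 change of -0.48 (SE 0.181, adjusted p = 0.515). The cdt1 groups touched only at WT control 3 and WT TCDD 1. For gmnn the lowest values were in WT TCDD 3 and 4, the libraries in which the mcm genes were the higher of their group. The origin recognition gene orc6 had 13.9, 9.93, 6.40 and 6.78 CPM in control and 7.20, 6.46, 7.73 and 7.35 CPM with TCDD (log2 -0.37, SE 0.201, adjusted p = 0.689), so control 3 and 4 lay below most TCDD libraries. Nearer to 0 was cdc6, which had 34.4, 23.4, 17.9 and 25.0 CPM in control and 23.9, 20.9, 24.5 and 20.7 CPM with TCDD (log2 -0.16, SE 0.183, adjusted p = 0.890). Likewise orc1 had 29.2, 20.1, 17.2 and 16.1 CPM and 16.6, 18.1, 22.2 and 18.1 CPM (log2 -0.14, SE 0.185, adjusted p = 0.916). In cdc6 and orc1 every TCDD value lay within the range of the controls.

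At the fork and in nucleotide supply, pcna had 599.8, 382, 277 and 298 CPM in WT control and 231, 232, 432 and 372 CPM in WT TCDD, a log2 change of -0.30 (SE 0.245, adjusted p = 0.817). The ligase gene lig1 had 150.3, 96.6, 67.3 and 70.6 CPM and 58.9, 63.2, 62.5 and 83.6 CPM, a log2 change of -0.52 (SE 0.214, adjusted p = 0.542). For pcna, WT TCDD 3 exceeded 3 of the 4 controls, and for lig1, WT TCDD 4 exceeded 2 of them. The ribonucleotide reductase subunit gene rrm1 followed pcna, with 338, 224, 158 and 165 CPM in control and 132, 136, 261 and 196 CPM with TCDD.

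In the G1/S group the smallest p was that of ccnd1, which encodes cyclin D1. Its levels were 335, 255, 212 and 266 CPM in WT control and 179, 172, 229 and 170.3 CPM in WT TCDD. WT TCDD 1, 2 and 4 lay below every control, and WT TCDD 3 above control 3. Its log2 change was -0.51 (SE 0.170, adjusted p = 0.412). The transcription factor gene e2f1 had the lowest log2 change of all members, -0.59 (SE 0.399, adjusted p = 0.768), with 4.71, 4.13, 3.75 and 1.31 CPM in control and 2.11, 2.64, 2.20 and 2.31 CPM with TCDD. Control 4 lay below all TCDD libraries of e2f1. The cyclin E gene ccne1 was among the nearest to 0, at a log2 change of -0.13 (SE 0.185, adjusted p = 0.923), while chek1 had -0.49 (SE 0.234, adjusted p = 0.629).

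Mitosis genes followed the same direction, with 14 of 19 lower at an unadjusted p under 0.05. Every WT TCDD library lay below every WT control in 5 members, nuf2, ndc80, kif11, mad2l1 and cenpf, all of the mitosis group, against 1.01% of all genes tested. The kinetochore gene nuf2 had 39.8, 29.8, 25.0 and 25.8 CPM in control and 20.8, 21.2, 20.6 and 22.0 CPM with TCDD, a log2 change of -0.51 (SE 0.148, adjusted p = 0.290). Its partner in the NDC80 complex, ndc80, had 54.9, 36.9, 28.5 and 30.4 CPM and 27.9, 26.2, 25.4 and 27.7 CPM, a log2 change of -0.49 (SE 0.169, adjusted p = 0.442). The 4 TCDD values of each gene lay close together, and the control values spread upwards from just above them. The spindle motor gene kif11 had 148, 124, 96.5 and 93.0 CPM and 81.3, 89.2, 81.7 and 80.8 CPM, a log2 change of -0.47 (SE 0.141, adjusted p = 0.307). The spindle checkpoint gene mad2l1 had 30.0, 23.2, 19.3 and 20.8 CPM and 17.3, 15.9, 18.5 and 18.5 CPM. For cenpf the control values were 61.8, 61.2, 44.1 and 43.6 CPM and the TCDD values 40.8, 43.5, 39.2 and 32.0 CPM, so its groups parted by a narrow margin. Without WT control 1 the log2 change of nuf2 was -0.34 (adjusted p = 0.837) and that of kif11 -0.33 (adjusted p = 0.841).

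Of the other mitosis genes, mki67, which encodes the Ki-67 protein that coats mitotic chromosomes, had 442, 377, 282 and 229 CPM in WT control and 235, 258, 224 and 203 CPM in WT TCDD (log2 -0.53, SE 0.181, adjusted p = 0.430). The topoisomerase gene top2a had 233, 205, 161 and 139 CPM and 128, 151, 129 and 123 CPM (log2 -0.48, SE 0.154, adjusted p = 0.398). In both genes WT control 4, the lowest control, lay within the range of the TCDD libraries. The B-type cyclin gene ccnb1 had 98.3, 73.3, 56.5 and 57.9 CPM and 50.004, 47.5, 67.5 and 57.4 CPM (log2 -0.36, SE 0.159, adjusted p = 0.583). The mitotic kinase gene cdk1 had 93.3, 79.7, 64.2 and 60.8 CPM and 56.0, 51.7, 78.9 and 59.3 CPM (log2 -0.28, SE 0.152, adjusted p = 0.687). In ccnb1 and cdk1, WT TCDD 3 exceeded both lower controls. The Polo kinase gene plk1 had 128, 108, 88.1 and 81.1 CPM and 65.8, 68.5, 99.5 and 76.0 CPM (log2 -0.39, SE 0.158, adjusted p = 0.542), and WT TCDD 3 was again the exception. Without the 4 libraries apart on the first component plk1 had a log2 change of -0.68 (adjusted p = 0.0451).

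**Figure D3:**
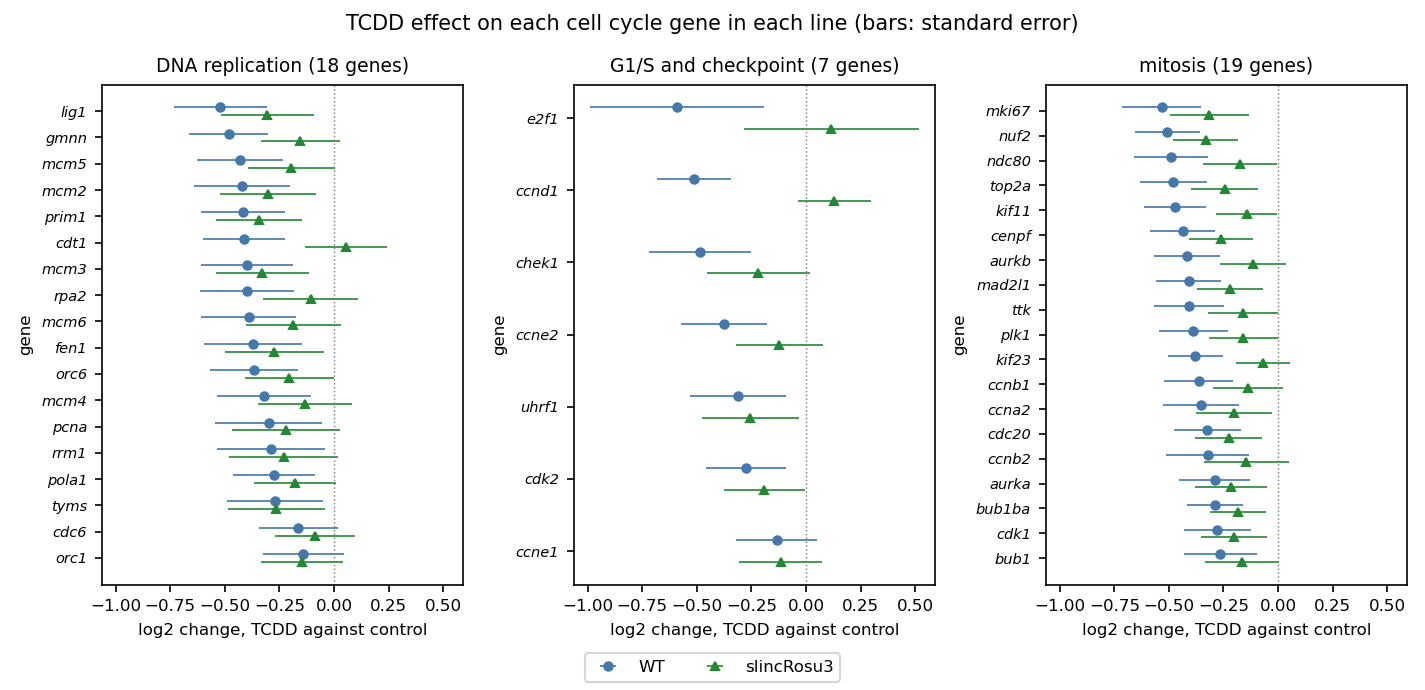
Log2 change with TCDD (horizontal axis) of each member in WT (circles) and slincRosu3 (triangles), with bars for the standard error, in 3 role groups. All 44 points of WT lie below 0, from -0.59 to -0.13; in slincRosu3 they run from -0.34 to 0.13, and no member passed the adjusted test in either line.

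With TCDD in slincRosu3 the median over members was -0.19, against -0.38 in WT, but without WT control 1 the medians were -0.19 and -0.17. Of the members, 41 of 44 had a log2 change below 0 (51.5% of all genes), from -0.34 to 0.13, with a median of -0.20 for replication, -0.12 for G1/S and checkpoint and -0.18 for mitosis genes. None passed the adjusted test, where 0.383% of all genes did, and none passed with DESeq2. At an unadjusted p under 0.05 only nuf2 was lower, against 1.68% of all genes, and no member separated the groups, against 1.59% of all genes. The lowest were prim1, the primase subunit gene (log2 -0.34, SE 0.196, adjusted p = 0.999), nuf2 (-0.33, SE 0.149, adjusted p = 0.972) and mcm3 (-0.33, SE 0.213, adjusted p = 0.999). The levels of nuf2 were 20.5, 25.3, 17.998 and 28.7 CPM in control and 17.4, 19.2, 17.1 and 19.7 CPM with TCDD, so control 1, 2 and 4 stood above every TCDD library and control 3 did not. Above 0 were cdt1 (0.05), e2f1 (0.12) and ccnd1 (0.13, SE 0.169, adjusted p = 0.999). The median of the members was -0.10 without slincRosu3 control 2 and -0.28 without slincRosu3 control 3.

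The remaining genes described in each library showed the same overlap in slincRosu3. The helicase gene mcm2 had 104, 137, 83.2 and 136 CPM in control and 99.5, 111, 79.1 and 83.5 CPM with TCDD. The clamp gene pcna had 254, 356, 225 and 354 CPM and 255, 292, 208 and 266 CPM. In both, control 2 and 4 were the highest libraries and TCDD 3 the lowest. The loading gene cdt1 had 8.99, 14.8, 9.42 and 12.7 CPM and 14.9, 12.4, 8.78 and 11.7 CPM, and gmnn had 8.30, 8.91, 6.37 and 9.83 CPM and 7.04, 7.16, 6.83 and 8.97 CPM. The mitosis gene mki67 had 295, 414, 264 and 263 CPM and 254, 273, 208 and 259.8 CPM, and top2a had 151, 207, 134 and 153 CPM and 133, 141, 118 and 152 CPM. In these 2 mitosis genes slincRosu3 control 2 alone stood far above the rest. The levels of ccnb1 were 53.5, 67.3, 52.2 and 65.9 CPM and 56.2, 56.2, 47.7 and 57.1 CPM, and those of cdk1 were 59.7, 74.0, 53.7 and 74.9 CPM and 55.8, 59.5, 51.2 and 61.4 CPM. The gene mcm7 had 102, 132, 105 and 178 CPM and 138, 135, 106 and 127 CPM. Over mcm3 to mcm6 the control levels ran from 58.6 CPM in mcm6 to 136 CPM in mcm4 and the TCDD levels from 58.0 CPM in mcm3 to 123 CPM in mcm4, and the groups overlapped in each.

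Whether TCDD acted differently on the lines was tested as the difference of the 2 effects, slincRosu3 minus WT. The value was above 0 in 43 members and below 0 in 1, where 50.7% of all genes were below 0, with a median of 0.18. None passed the adjusted test and neither did any other gene (0%, with 899 genes at an unadjusted p under 0.05 and none called by DESeq2). Only ccnd1 had an unadjusted p under 0.05 in the positive direction, against 2.13% of all genes. Its levels in slincRosu3 were 209.6, 269.7, 195 and 230.5 CPM in control and 311, 237, 173 and 269 CPM with TCDD. The slincRosu3 groups overlapped throughout, while in WT 3 of 4 TCDD libraries lay below all controls. The difference for ccnd1 was 0.64 (SE 0.240, adjusted p = 0.996), and 0.51 without WT control 1. The other high values were e2f1 (0.71, SE 0.564) and cdt1 (0.47, SE 0.265), and the lowest were orc1 (-0.01, SE 0.263), tyms, the thymidylate synthase gene (0.00, SE 0.312), and ccne1 (0.02, SE 0.265). Without WT control 1 the median difference was -0.029 and 24 members were below 0, and without the 4 libraries apart on the first component it was 0.47.

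**Figure D4:**
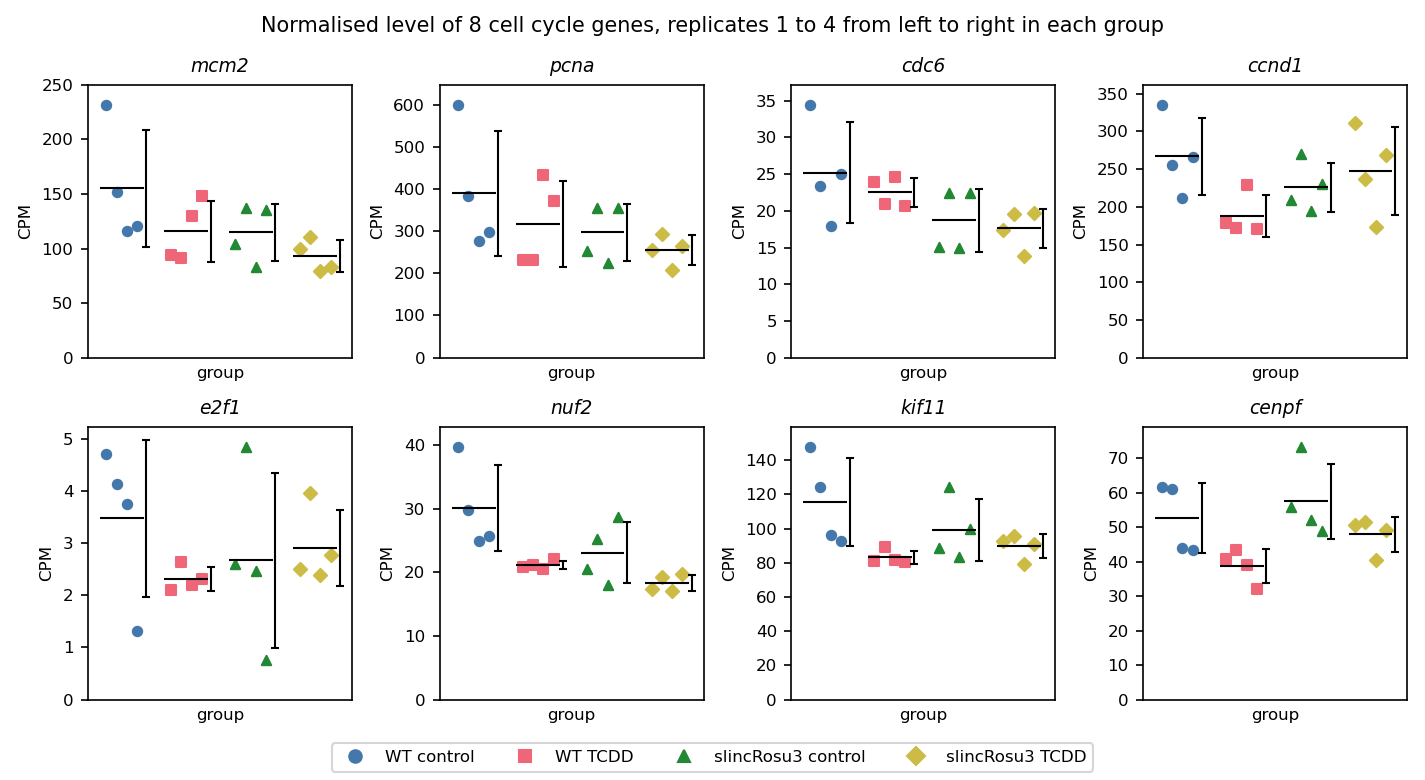
Normalised levels (vertical axis, CPM from 0) of mcm2, pcna, cdc6, ccnd1, e2f1, nuf2, kif11 and cenpf in 16 libraries, in 4 groups told apart by colour and marker, with group means (lines) and SD (bars). In nuf2 and kif11 the WT TCDD libraries lie below all WT controls (22.0 CPM or less against 25.0 CPM or more in nuf2), and in ccnd1 WT TCDD 3 stands at 229 CPM among WT TCDD values of 170.3 to 179 CPM.

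Averaged over both lines, the TCDD effect was below 0 in all 44 members (50.3% of all genes), from -0.42 to -0.12, with a median of -0.27. None passed the adjusted test, where 0.804% of all genes did. At an unadjusted p under 0.05, 24 were lower, 17 of mitosis, 6 of replication and chek1, against 3.15% of all genes. The closest to the threshold was nuf2 at -0.42 (SE 0.105, adjusted p = 0.0898), which passed with DESeq2 (adjusted p = 0.0175). The next smallest adjusted p-values were those of cenpf (-0.35, SE 0.105, adjusted p = 0.218), top2a (-0.36, SE 0.109, adjusted p = 0.224) and mki67 (-0.42, SE 0.128, adjusted p = 0.225). After nuf2 and mki67 the lowest log2 value was that of lig1, -0.41 (SE 0.152, adjusted p = 0.412). Nearest to 0 were cdc6 and ccne1, both at -0.12, and orc1 at -0.14. The average uses the same libraries as the 2 separate effects. Its median was -0.18 without WT control 1, where all 44 members remained below 0, and 9 had an unadjusted p under 0.05. The percentages of all genes given here belong to the fit with that library.

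slincRosu3 against WT asks how the mutant line differs. In control embryos 43 of 44 members were lower in slincRosu3 (51.3% of all genes), from -0.43 to 0.13, with a median of -0.26. None passed the adjusted test (1.54% of all genes did) or DESeq2, 4 were lower at an unadjusted p under 0.05 (cdc6, cdt1, nuf2 and the Aurora kinase gene aurkb; 5.71% of all genes), and none separated the groups (3.16% of all genes). The lowest were mcm2 (-0.43, SE 0.220, adjusted p = 0.492), rpa2 (-0.43, SE 0.216, adjusted p = 0.486) and cdc6 (-0.43, SE 0.184, adjusted p = 0.379). The highest were cenpf (0.13), cdc20, an activator of the anaphase-promoting complex (-0.05), and the Aurora kinase gene aurka (-0.09). The median was -0.066 without WT control 1, where 33 members were below 0, and none had an unadjusted p under 0.05 in either direction. The comparison shares its WT controls with the TCDD comparison in WT.

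With TCDD, slincRosu3 against WT shares no library with the control comparison. There, 30 of 44 members were below 0 (52.2% of all genes), with medians of -0.19 for replication, -0.03 for G1/S and checkpoint and -0.0078 for mitosis genes. None passed the adjusted test (1.86% of all genes did) or DESeq2, and 1, ccnd1, was higher at an unadjusted p under 0.05 (0.40, SE 0.170, adjusted p = 0.283; 6.95% of all genes). The other high values were e2f1 (0.33) and cenpf (0.31, SE 0.148, adjusted p = 0.361), and the lowest were cdc6 (-0.35, SE 0.184, adjusted p = 0.403), mcm2 (-0.31) and pcna (-0.31). In 3 members, cdc6, ccne1 and nuf2, every slincRosu3 TCDD library lay below every WT TCDD library, against 4.9% of all genes. Without the 4 libraries apart on the first component, which include WT TCDD 3 and 4, the median was 0.073 and 11 members were below 0.

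Averaged over treatments, 40 of 44 members were lower in slincRosu3 (52.2% of all genes), with a median of -0.24 for replication, -0.16 for G1/S and checkpoint and -0.095 for mitosis genes. None passed the adjusted test, where 5.45% of all genes did, and none passed with DESeq2. At an unadjusted p under 0.05, 6 were lower (cdc6, mcm2, ccne1, nuf2, the cyclin gene ccnb2 and the checkpoint kinase gene bub1), against 10% of all genes. The loading gene cdc6 was closest to the threshold. Its levels were 15.05, 22.5, 14.9 and 22.4 CPM in slincRosu3 control and 17.4, 19.5, 13.9 and 19.7 CPM in slincRosu3 TCDD, against 17.9 to 34.4 CPM in the 8 WT libraries. Its log2 difference was -0.39 (SE 0.130, adjusted p = 0.0940), and -0.30 (adjusted p = 0.183) without WT control 1. The other low values were mcm2 (-0.37, SE 0.156, adjusted p = 0.195) and pcna (-0.35). At the other end, cenpf was at 0.22 (SE 0.105, adjusted p = 0.270), with 56.0, 73.4, 52.2 and 48.9 CPM in slincRosu3 control and 50.7, 51.6, 40.6 and 49.3 CPM in slincRosu3 TCDD, followed by ccnd1 (0.08) and gmnn (0.02). The median over members was -0.067 without WT control 1.

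Members differed in how closely they followed the rest. Over the 16 libraries the highest and lowest level of a member differed by a median of 1.20 on the log2 scale (0.927 over all genes tested), from 0.75 for kif23, a motor of cytokinesis, to 2.53 for e2f1. The median SD within groups was 0.287, against 0.241 over all genes. As a description over 16 libraries, the correlation of a member with the mean of the others had a median of 0.91 and was highest for ccnb1 at 0.98. It was lowest for e2f1 (0.31), gmnn (0.43), cenpf (0.53) and ccnd1 (0.67). In e2f1 the 2 lowest libraries were slincRosu3 control 4 at 0.752 CPM and WT control 4 at 1.31 CPM, and in gmnn they were WT TCDD 3 and 4, all 4 among the libraries apart on the first component.

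Further genes of the same pathways were counted from lists that do not overlap the members. They were measured in the same libraries, so their counts are not independent of the members' counts. WT control 1 had the highest score in both lists, 0.749 for other replication and 0.575 for other mitosis genes. The counts and medians of these lists were not repeated without it. Of 49 other replication genes 47 were found, and all 47 had a log2 change below 0 with TCDD in WT (median -0.33; 48.4% of all genes below 0), with none called (0.325% of all genes in either direction) and 10 lower at an unadjusted p under 0.05 (3.64% of all genes). In slincRosu3 45 of 47 were below 0 (median -0.15; 51.5% of all genes). Of 60 other mitosis genes 59 were found, all below 0 in WT (median -0.33), with none called and 26 lower at an unadjusted p under 0.05 (against the same shares of all genes), and 53 of 59 below 0 in slincRosu3 (median -0.15). With the smallest p in WT were rpa3, a subunit of the single-strand binding complex (-0.65, adjusted p = 0.135), dbf4, the activator of the origin-firing kinase (-0.43, adjusted p = 0.398), prc1b, of the central spindle (-0.49, adjusted p = 0.132), and cdca8, of the chromosomal passenger complex (-0.55, adjusted p = 0.187). Between the lines, averaged over treatments, 43 of the 47 other replication genes were lower in slincRosu3 (median -0.17). So were 47 of the 59 other mitosis genes (median -0.069), against 52.2% of all genes. In each list 1 gene was called, against 5.45% of all genes. Unlike most of its list, the polymerase delta subunit gene pold3 was higher in slincRosu3 (0.61, SE 0.117, adjusted p = 0.00415). It stood at 30.7 to 39.5 CPM in the 8 slincRosu3 libraries against 17.1 to 32.8 CPM in WT. The cytokinesis gene racgap1 was lower (-0.28, adjusted p = 0.0399), a call lost in 12 of 22 settings, among them without WT control 1 (adjusted p = 0.0691), with adjusted p up to 0.115.

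Regulators of the cycle were listed apart. The list mixes genes that restrain it with genes that drive it, among them cdk4, cdk6 and ccnd3. Of 25 tested genes for CDK inhibitors, pocket proteins and related regulators, 16 had a log2 change below 0 with TCDD in WT (median -0.065) and 12 in slincRosu3 (median 0.021). The shares of all genes below 0 were 48.4% and 51.5%. Of the 25, 1 passed the test, cdkn1ba, a p27-type inhibitor of cyclin-dependent kinases, which rose with TCDD in both lines. Of all genes, 0.325% passed in WT and 0.383% in slincRosu3. The next smallest p in WT was in the other direction, that of cdkn1cb, a p57-type inhibitor, with 5.89, 4.44, 2.96 and 4.98 CPM in control and 2.92, 2.28, 1.72 and 2.83 CPM with TCDD (log2 -0.90, SE 0.235, adjusted p = 0.180). Its WT groups did not overlap, and 1.01% of all genes had every WT TCDD library below every WT control. In rat hepatoma cells p27 is a known target of the aryl hydrocarbon receptor. Whether the receptor acts on cdkn1ba in these embryos was not tested. The levels of cdkn1ba were 35.5, 34.4, 37.1 and 44.9 CPM in WT control and 58.0, 55.2, 57.1 and 61.4 CPM in WT TCDD. They were 41.2, 38.7, 41.8 and 43.6 CPM in slincRosu3 control and 57.8, 55.3, 69.3 and 57.8 CPM in slincRosu3 TCDD. All 8 TCDD libraries lay above all 8 controls, and the share of all genes that did so was not counted. The log2 change was 0.61 in WT (SE 0.0950, adjusted p = 0.00384) and 0.54 in slincRosu3 (SE 0.0948, adjusted p = 0.0117). The call was lost when only the 2 WT groups were fitted (adjusted p = 0.153), and in slincRosu3 without control 1, control 2 or TCDD 3 (adjusted p of 0.0559, 0.0578 and 0.0545).

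The antiproliferative gene btg2 was lower in slincRosu3 than in WT, by a log2 difference of -0.86 with TCDD (SE 0.191, adjusted p = 0.0276) and -0.67 averaged over treatments (SE 0.135, adjusted p = 0.00571). With TCDD it had 176, 179, 129.6 and 89.0 CPM in WT and 87.1, 71.9, 64.8 and 93.1 CPM in slincRosu3, so WT TCDD 4 lay within the slincRosu3 range. The call with TCDD was lost in 6 of 23 settings, among them without WT TCDD 1 (adjusted p = 0.0793). The G1 kinase gene cdk4 was lower averaged over treatments (-0.39, SE 0.106, adjusted p = 0.0389), a call lost in 10 of 22 settings, among them without WT control 1 (adjusted p = 0.0753). Of the 25 tested regulators, btg2 was the 1 called between lines with TCDD, against 1.86% of all genes. Averaged over treatments 2 were called, btg2 and cdk4, against 5.45% of all genes. In these comparisons 13 and 17 of the 25 were below 0, against 52.2% of all genes in each. Of 12 tested p53 target genes none passed in any comparison, and their median with TCDD was 0.080 in WT and 0.052 in slincRosu3.

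Scores of 5 lists of cell type markers were set beside the members' score. In WT control 1 the photoreceptor score was -0.83 and the neuron score -0.30, the lowest of 16 libraries, and the neural progenitor score was 0.31, the highest. The summed level of 25 photoreceptor markers was 144 to 395 CPM in WT control, 334 to 408 CPM in WT TCDD, 251 to 397 CPM in slincRosu3 control and 198 to 384 CPM in slincRosu3 TCDD. For 18 neural progenitor markers (of 20 listed) it was 4009.9 to 5549.9 CPM, 3489.5 to 4969 CPM, 3741 to 4759 CPM and 3633 to 3967 CPM in the same order. For 20 neuron markers (of 21 listed) it was 2603 to 3226 CPM, 3067 to 3327 CPM, 2933 to 3427 CPM and 2966 to 3406 CPM. For 12 erythroid markers (of 14 listed) it was 1696 to 2963 CPM, 1527 to 3066 CPM, 1423 to 2411 CPM and 1628 to 2904 CPM, and for 18 skeletal muscle markers 76744 to 117370 CPM, 73845 to 97933 CPM, 74131 to 98207 CPM and 82945 to 94268 CPM. The progenitor list shares with the members that WT TCDD 1 and 2 are its 2 lowest libraries in WT.

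With TCDD in WT, 14 of 18 neural progenitor markers had a log2 change below 0 (median -0.29; 48.4% of all genes), 7 had an unadjusted p under 0.05 in either direction (1676 of 20907 genes) and 1 passed the adjusted test as lower (6 of 20907 genes). Another, fabp7a, a radial glia gene, was lower in slincRosu3 than in WT with TCDD (-0.46, adjusted p = 0.0493) and averaged over treatments (-0.31, adjusted p = 0.0307). It was the 1 progenitor marker called in each of these comparisons, where 1.86% and 5.45% of all genes were called. Between lines with TCDD, 13 of the 18 progenitor markers were above 0 (median 0.13). Averaged over treatments, 11 of the 18 were below 0 (median -0.082). With TCDD in WT 22 of 25 photoreceptor markers (median 0.39) and 14 of 20 neuron markers (median 0.12) were above 0. All 12 erythroid markers (median -0.13) and 15 of 18 muscle markers (median -0.12) were below 0 there, with none called. The photoreceptor score of the WT controls ran from -0.83 to 0.54. Without WT control 1 their mean went from -0.23 to -0.033, against 0.275 in WT TCDD. Their mean progenitor score went from 0.18 to 0.14, against -0.145 in WT TCDD. In slincRosu3 the progenitor median was 0.02, the erythroid median 0.19 (8 of 12 above 0) and the muscle median 0.079 (17 of 18 above 0). The neuron median was -0.033 (13 of 20 below 0). All 25 photoreceptor markers were below 0 (median -0.30), so in slincRosu3 both the photoreceptor markers and most members had changes below 0. Over the 16 libraries, as a description, Pearson's r of the members' score was -0.69 with the photoreceptor score, -0.80 with the neuron score and 0.63 with the neural progenitor score, and -0.44, -0.66 and 0.47 without WT control 1 and 2. With the erythroid and skeletal muscle scores it was 0.05 and 0.04, and 0.28 and 0.13 without those 2 libraries. The part of these cell types in the members' changes was not tested.

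**Figure D5:**
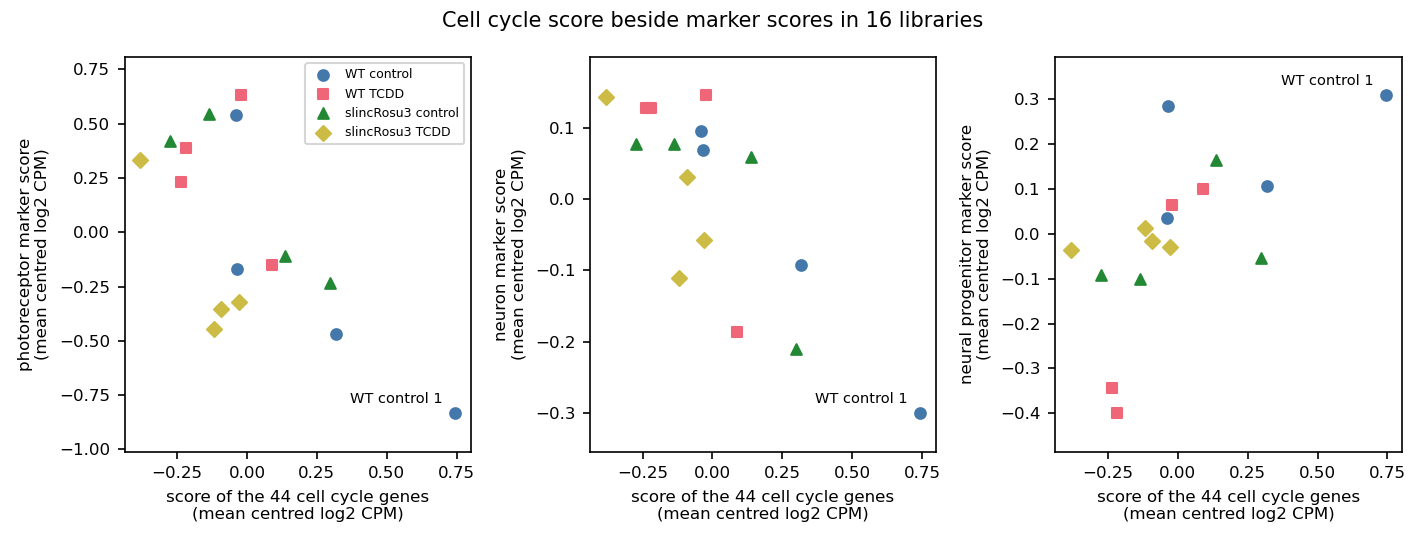
Score of the 44 members (horizontal axis, mean centred log2 CPM) against the scores of photoreceptor, neuron and neural progenitor markers (vertical axes, same unit) in 16 libraries, with colours and markers for the 4 groups. WT control 1 lies at the corner of each panel, with a members' score of 0.74 and marker scores of -0.83, -0.30 and 0.31.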

How the data were processed

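RNA of 16 whole-embryo libraries was analysed. The authors deposited raw counts per Ensembl gene, already summed over the 2 read files of a sample and stripped of genes with no or few counts, per the file headers. In 1 column, of expected count form as deposited by the authors, 1 value was not whole and was rounded. The submitters' processing notes name HISAT2, STAR, DESeq2 and GRCz11; versions, counter, annotation and strand setting are not given in the sources used here, so reads of overlapping or antisense genes may be mixed. Another 70 columns of per-sample values were not used. They include WT columns that hold other values than the same-named columns used here. The source of that difference was not tested. The WT read files that were used summed to the main table for all 26347 genes, and 0 pairs of libraries were identical.

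Tests used edgeR 4.0.16 (R 4.3.3): quasi-likelihood F test, two-sided, TMM scaling, filterByExpr, 16 libraries in 4 groups with 12 residual degrees of freedom, Benjamini-Hochberg adjustment over 20907 genes, threshold 0.05. CPM are TMM-scaled, and scores use a prior count of 2. DESeq2 1.42.0 (Wald test), DESeq2 size factors, no filter, only the groups compared, a prior count of 0.5, the replicate number as a block, and libraries left out were alternatives. Percentages of all genes come from all 16 libraries, also where they stand beside counts with libraries left out. The members, gene lists and tests were chosen with earlier results of these data known. Named in each comparison are the 3 members with the highest and the 3 with the lowest log2 change, and any past the threshold. The levels of the mcm genes, pcna, cdt1, gmnn, ccnd1, ccnb1, cdk1, top2a and mki67 are given in both lines in any case. Those of mcm3 to mcm6 in slincRosu3 are given as ranges. For WT control 1 the 6 members farthest out are named. The 2 genes of each further list with the smallest p were looked at in each comparison, and other genes named were chosen after their values were seen.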

Additional observations from a re-analysis of the deposited data

Results flagged for a closer look

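In 196 sets of 4 libraries (44 members and 5 scores in each of 4 groups), 10 held a library far from the other 3 by Dixon's criterion, and chance gives about 1 in 20 groups. Of these, 5 were low values in slincRosu3 TCDD 3: the cyclin gene ccnb1 at 47.7 CPM (56.2 to 57.1 CPM in the rest of its group), cdc20 at 39.2 CPM (43.2 to 43.9 CPM), plk1 at 70.7 CPM (81.9 to 83.8 CPM), ndc80 at 23.6 CPM (29.0 to 29.97 CPM) and the cyclin gene ccne1 at 4.28 CPM (5.51 to 5.70 CPM). The genes of 1 library are not independent of each other. The cyclin gene ccnb2 stood at 14.2 CPM in WT control 1 and at 9.47 to 10.1 CPM in the other WT controls. The cyclin D1 gene ccnd1 stood at 229 CPM in WT TCDD 3 and at 170.3 to 179 CPM in the other WT TCDD libraries. The motor gene kif11 stood at 89.2 CPM in WT TCDD 2 and at 80.8 to 81.7 CPM in the rest. The score of the G1/S and checkpoint genes was 0.40 in slincRosu3 control 2 and -0.24 to -0.14 in the other slincRosu3 controls. Geminin, gmnn, stood at 8.97 CPM in slincRosu3 TCDD 4 and at 6.83 to 7.16 CPM in the rest of its group.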

How the results depend on the processing

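No direction of a called result reversed. Of the alternative values of named genes, 1314 kept their side of the threshold, 32 lost a call and 7 gained one. Most of the 1314 belong to members, none of which had a call to lose. The 32 losses all fell among the called genes of the further lists. The call of racgap1 was lost in 12 of 22 settings and that of cdk4 in 10 of 22. That of btg2 with TCDD was lost in 6 of 23, and that of cdkn1ba in 1 of 23 in WT and 3 of 23 in slincRosu3. The averaged calls of cdkn1ba, btg2 and pold3 were kept in all 22. The count of members called stayed 0 except as follows. Without the 4 libraries apart on the first component it was 1 with TCDD in WT (plk1), averaged over lines it was 1 with DESeq2 (nuf2), and leaving out one library at a time gave 0 to 2 for the TCDD effect averaged over lines (nuf2 and mki67 without WT control 4, nuf2 without slincRosu3 control 3) and 0 to 1 for the averaged line effect (cdc6 without WT control 3, nuf2 without slincRosu3 control 4). With the replicate block, cenpf (-0.34, adjusted p = 0.0375) made the count of the averaged TCDD effect 1. In the fit that called plk1, 327 were called over all genes. The numbers were not taken as pairs in the main fit, because the labels do not say what same-numbered libraries share. After group means were removed, 16 of 24 same-numbered pairs had a correlation over 0.1, with a range of -0.28 to 0.68. Pairs numbered 1 ran from -0.22 to 0.20 and pairs numbered 2 from 0.28 to 0.51. Pairs numbered 3 ran from -0.28 to 0.41 and pairs numbered 4 from -0.0011 to 0.68. All libraries apart on the first component except WT TCDD 3 are numbered 4. Pairs with different numbers ran from -0.63 to 0.38. Whether same-numbered libraries share a clutch or batch was not tested.

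The replication median minus the mitosis median in WT with TCDD was 0.0068, ran from -0.067 to 0.14 with one library left out and was -0.19 without the 4 libraries. Between lines with TCDD it was -0.18, -0.0062 without the 4 and -0.0066 without these and WT control 1. For the difference of effects it was -0.081, and 0.12 without the 4. Averaged between lines it was -0.14, and -0.018 without these and WT control 1. The median difference of effects was 0.18, and 0.47 without the 4. The causes were not tested. Counts over all genes ran from 26 to 327 (TCDD in WT), 46 to 369 (TCDD in slincRosu3), 149 to 604 and 175 to 1219 (lines, control and TCDD), 0 to 20 (difference), 112 to 486 and 857 to 1550 (averages). Counting error weighs more on low genes such as e2f1 (0.752 to 4.85 CPM).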

Other observations

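The listed rrm2, the small subunit of ribonucleotide reductase that supplies deoxynucleotides for replication, has no gene under the authors' symbols, but a gene name table gives the name RRM2 to 2 IDs. These were looked at after their values were seen, and reads of near-identical copies could have been split between them. ENSDARG00000020711 stood at 13.9 to 73.1 CPM in the 8 WT libraries and at 0.160 to 12.1 CPM in the 8 slincRosu3 libraries, without overlap. The share of all genes without overlap between the lines was not counted. Between lines, 5.45% of all genes were called averaged over treatments, 1.54% in controls and 1.86% with TCDD. The log2 difference of ENSDARG00000020711 between lines averaged over treatments was -2.35 (SE 0.449, adjusted p = 0.00390). It was -2.74 (SE 0.643, adjusted p = 0.0386) in controls and -1.96 (adjusted p = 0.135) with TCDD. ENSDARG00000078069 stood at 24.2 to 43.3 CPM in WT and at 33.4 to 66.8 CPM in slincRosu3, an averaged difference of 0.57 (SE 0.139, adjusted p = 0.0219) in the other direction.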
